A study of Homo sapiens with 12 samples.

Results

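miR-26a-5p and miR-26b-5p are sister miRNAs with the same seed. The hairpins that encode them, mir-26a-1, mir-26a-2 and mir-26b, lie in introns of CTDSPL, CTDSP2 and CTDSP1. They were chosen by name: the 2 major arms, hsa-miR-26a-5p and hsa-miR-26b-5p in full, and their 3 minor 3p arms. These are 5 of 1277 mature miRNAs that were left after repeated lines of the deposited table had been collapsed. Small RNAs were sequenced from HCT116, a human colorectal carcinoma line, whose DROSHA gene had been knocked out. Every library received 4.5 µg of the plasmid pXC-NLS-DG4, whose coding content the labels do not give, together with a pCK plasmid. The pCK plasmid coded for DROSHA with its belt deleted, for the DROSHA mutant m4, for wild-type DROSHA, or was empty, and each of these 4 groups has 3 libraries. What m4 alters is not stated in the labels. The DROSHA-coding plasmids were used at 4.5 µg. RNA of 19 to 24 nt was taken for the libraries, so the level of each DROSHA protein was not measured here. All groups share the knockout, and the labels do not say whether the repeats are separate cultures, so p-values measure the spread between these libraries.

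DROSHA is the nuclear RNase III enzyme that, with DGCR8, cuts the hairpin out of a primary miRNA transcript, after which DICER1 releases the duplex of 5p and 3p arms. The belt is a part of DROSHA that, in structures of the complex bound to a primary miRNA, lies around the base of the hairpin. CTDSP1, CTDSP2 and CTDSPL code for small phosphatases of the carboxy-terminal domain of RNA polymerase II. The miR-26 family is known to repress EZH2 and is often low in tumours, and its hairpins are transcribed together with their host genes.

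The mature 5p sequences are shown because the counts of both rest on telling them apart; capitals mark the seed, bases 2 to 8 from the 5′ end, and the sequences are those of RefSeq on GRCh38.p14.
miR-26a-5p: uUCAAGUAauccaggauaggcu
miR-26b-5p: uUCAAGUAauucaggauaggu
The first 10 bases are the same. Counted from 1 at the 5′ end and from miR-26a-5p to miR-26b-5p, the arms differ by C11U and C21U, and miR-26a-5p is 22 nt long against 21 nt for miR-26b-5p. The other human miRNAs with this seed in RefSeq, miR-1297 and miR-4465, had no line in the deposited table and so were not analysed here.

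The hairpins are shown because 2 of them give the same 5p arm, while the 5p arm of the remaining one had other levels. Only mature arms were counted. Capitals mark the 5p arm.
mir-26a-1: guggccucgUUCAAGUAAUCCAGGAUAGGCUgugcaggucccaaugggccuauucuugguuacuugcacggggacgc
mir-26a-2: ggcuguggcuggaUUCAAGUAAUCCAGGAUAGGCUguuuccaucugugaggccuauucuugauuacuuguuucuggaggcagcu
mir-26b: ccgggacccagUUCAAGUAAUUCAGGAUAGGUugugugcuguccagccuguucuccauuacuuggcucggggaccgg
MIR26A1 lies at chr3:37969404-37969480 on the plus strand, in intron 5 of 7 of CTDSPL. MIR26A2 lies at chr12:57824609-57824692 on the minus strand, in intron 5 of 7 of CTDSP2. MIR26B lies at chr2:218402646-218402722 on the plus strand, in intron 4 of 6 of CTDSP1, which is 629 bases long, against 3524 and 2026 bases for the introns that hold MIR26A1 and MIR26A2. Introns were numbered on the principal transcript of GENCODE 29, and no coding transcript of these genes had an exon over a hairpin. The hairpins are 77, 84 and 77 nt long for mir-26a-1, mir-26a-2 and mir-26b. Their aligned sequences were 65.9% identical between mir-26a-1 and mir-26a-2, 67.9% between mir-26a-1 and mir-26b, and 63.1% between mir-26a-2 and mir-26b. Folded with RNAfold, the free energies were -37.3, -41.3 and -40.2 kcal/mol for mir-26a-1, mir-26a-2 and mir-26b. The distance between the arms was 17, 16 and 14 nt, and the terminal loop of the fold held 15, 14 and 6 nt, in the same order. In these folds positions 2 and 12 of the 5p arm were unpaired in all 3 hairpins. Position 1 was unpaired only in mir-26a-2, and position 11 only in mir-26b. No test connects these features with the values below.

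The deposited table gives raw read counts, and a level here is a scaled read count, the count divided by a size factor. The size factors came from miRNAs that do not need DROSHA, namely the mirtrons miR-1226, miR-1224 and miR-877, the capped miR-484 and the summed miR-320 family, so that the scaling does not rest on miRNAs that DROSHA makes. After collapsing, the libraries held 101886 to 332081 reads. Over all 12 libraries there were 6577 reads of miR-26a-5p and 393 of miR-26b-5p, so values of miR-26b-5p carry more counting error. The 2 lines of miR-26a-5p, under mir-26a-1 and mir-26a-2, held the same reads in every library, so the reads of both loci cannot be told apart. The intestinal markers miR-200c-3p, miR-141-3p, miR-192-5p, miR-194-5p and miR-215-5p were all listed, with summed levels of 68.6 to 212 with the belt deletion, 102 to 141 with m4, 69.9 to 122 with wild type and 46.5 to 59.4 with the empty plasmid, where miR-194-5p was at 0. Most of this was miR-200c-3p, which averaged 89.9, 107, 63.7 and 45.4 in the same order. miR-192-5p averaged 16.1, 8.42, 26.6 and 2.59, highest with wild type. Low in every group were miR-141-3p (3.39, 1.40, 2.57 and 1.37), miR-194-5p (1.82, 0.73, 2.67 and 0) and miR-215-5p (6.20, 3.72, 4.55 and 1.45). Of 11 markers of other cell types 7 were listed, and these summed to 569 to 786, 325 to 628, 478 to 699.7 and 216 to 292 in the same groups. The endothelial marker miR-126-3p averaged 404, 149.7, 393 and 9.44, the smooth muscle and fibroblast marker miR-143-3p 185, 171, 112 and 133, and the neuronal marker miR-9-5p 72.1, 71.9, 69.1 and 20.2. The hepatocyte marker miR-122-5p went the other way, averaging 45.5, 65.1, 48.9 and 78.8, highest with the empty plasmid. At 0 in a whole group were miR-142-5p with the belt deletion, m4 and wild type, miR-145-5p with m4 and the empty plasmid, and miR-1-3p with the belt deletion and the empty plasmid. The part of these markers in the results was not tested.

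miR-26a-5p was high with the belt deletion and with wild-type DROSHA, and much lower with m4. Its scaled reads were 1021, 936 and 1019.6 with the belt deletion. They were 113, 136 and 179 with m4. They were 1576, 1157 and 1024 with wild type, against 53.4, 41.0 and 50.5 with the empty plasmid. The belt deletion libraries lay just below the wild-type ones without overlap, and the m4 libraries lay between these and the empty ones, also without overlap.

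miR-26b-5p was high with wild-type DROSHA and low with the belt deletion. Its scaled reads were 15.8, 28.8 and 5.12 with the belt deletion, from 18, 23 and 6 reads. They were 19.3, 24.0 and 26.9 with m4, from 18, 26 and 21 reads. They were 124, 129.5 and 90.2 with wild type, from 104, 72 and 80 reads, against 9.78, 4.17 and 3.98 with the empty plasmid, from 13, 6 and 6 reads. Every wild-type library was above every other library. The belt deletion overlapped both m4 and the empty plasmid.

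**Figure D1:**
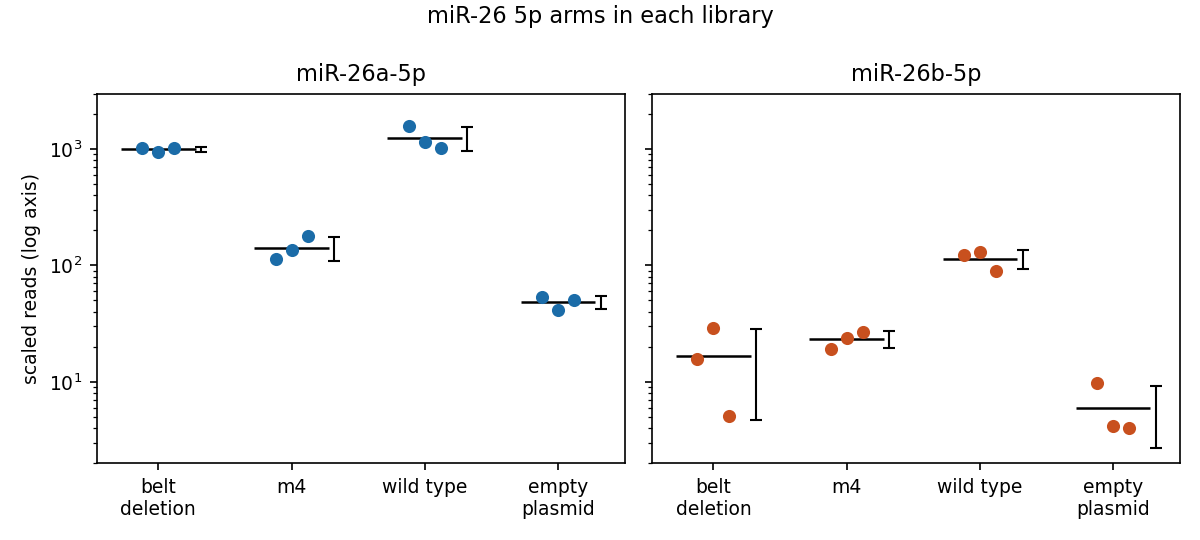
Scaled reads (log axis) of miR-26a-5p on the left and miR-26b-5p on the right in each of the 12 libraries by group; points are libraries, lines are means and bars are SDs (n = 3). The belt deletion averaged 992 for miR-26a-5p, near wild type at 1252, and 16.6 for miR-26b-5p, far below wild type at 114.

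miR-26a-5p averaged 992 ± 49.0 scaled reads with the belt deletion, 143 ± 33.7 with m4, 1252 ± 288 with wild type and 48.3 ± 6.46 with the empty plasmid (SD, n = 3 each). miR-26b-5p averaged 16.6 ± 11.9 with the belt deletion, 23.4 ± 3.82 with m4, 114 ± 21.2 with wild type and 5.98 ± 3.29 with the empty plasmid. By mean level the empty plasmid was lowest and wild type highest for both, with m4 below the belt deletion for miR-26a-5p and above it for miR-26b-5p. Differences were tested with edgeR's quasi-likelihood test in 1 fit of all 12 libraries, with Benjamini-Hochberg adjustment over 310 miRNAs, and a call is an adjusted p under 0.05. Neighbours in these orders that the test did not separate were wild type and the belt deletion for miR-26a-5p, and m4 and the belt deletion for miR-26b-5p. Comparisons with the empty plasmid share its 3 libraries, and comparisons with wild type share the wild-type ones.

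Wild type against the empty plasmid asks which miRNAs come back with active DROSHA. miR-26a-5p rose 25.9-fold with wild type, a log2 change of 4.69 (SE 0.36, edgeR adjusted p = 7.47e-20). miR-26b-5p rose 18.9-fold, a log2 change of 4.24 (SE 0.46, edgeR adjusted p = 3.12e-13). Of all miRNAs tested, 43.2% were called, 42.6% higher with wild type and 0.645% lower, and the median log2 change was 0.72. Bulk RNA cannot tell a larger share of transfected cells from more miRNA per cell. With library sizes from all miRNAs (TMM, DESeq2 size factors, total counts) the log2 change was smaller, 3.83, 4.03 and 3.88 for miR-26a-5p and 3.37, 3.59 and 3.45 for miR-26b-5p.

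Both sisters were higher with m4 than with the empty plasmid. miR-26a-5p rose 2.94-fold with m4, a log2 change of 1.56 (SE 0.32, edgeR adjusted p = 4.53e-05). miR-26b-5p rose 3.89-fold, a log2 change of 1.96 (SE 0.47, edgeR adjusted p = 0.000335). Of all tested, 41.9% were called, 41% higher with m4 and 0.968% lower. The change of miR-26a-5p was 0.89 under TMM and 2.16 with the sum of the reference hairpins, and that of miR-26b-5p was 1.31 under TMM, all still called.

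Against wild type, m4 was lower for both. miR-26a-5p was 8.79-fold lower, a log2 change of -3.14 (SE 0.34, edgeR adjusted p = 1.06e-12). miR-26b-5p was 4.87-fold lower, a log2 change of -2.28 (SE 0.41, edgeR adjusted p = 3.25e-06). Of all tested, 37.7% were called, 34.2% lower and 3.55% higher. Under total-count scaling the changes were -2.08 for miR-26a-5p and -1.26 for miR-26b-5p.

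Against the empty plasmid, the belt deletion was far higher for miR-26a-5p and a little higher for miR-26b-5p. miR-26a-5p rose 20.5-fold with the belt deletion, a log2 change of 4.36 (SE 0.36, edgeR adjusted p = 1.51e-18), where 43.2% of all tested were called, 42.9% higher and 0.323% lower. miR-26b-5p rose 2.68-fold, a log2 change of 1.42 (SE 0.48, edgeR adjusted p = 0.00983), although the groups overlapped. This call for miR-26b-5p ended under TMM (0.62, adjusted p = 0.241), DESeq2 size factors (0.72, adjusted p = 0.175) and total counts (0.67, adjusted p = 0.258), and without empty plasmid replicate 2 (1.26, adjusted p = 0.0671), empty plasmid replicate 3 (1.21, adjusted p = 0.0744) or belt deletion replicate 2 (0.82, adjusted p = 0.263), all by edgeR. The same scalings gave 3.63, 3.73 and 3.59 for miR-26a-5p.

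The belt deletion against wild type asks what DROSHA loses without its belt. miR-26b-5p was 7.07-fold lower with the belt deletion than with wild type, a log2 change of -2.82 (SE 0.42, edgeR adjusted p = 2.92e-07). In this comparison 12.6% of the 310 miRNAs were called, 9.35% lower and 3.23% higher, and the change of miR-26b-5p was the 4th lowest of all. miR-26a-5p had a log2 change of -0.34 (SE 0.31, edgeR adjusted p = 0.506), without a call, although its 3 belt deletion libraries were the lower ones. Without belt deletion replicate 2, the library with the most miR-26b-5p of its group, the log2 change of miR-26b-5p was -3.45. Without belt deletion replicate 3, the library with the least, it was -2.38 (edgeR adjusted p = 0.000184).

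**Figure D2:**
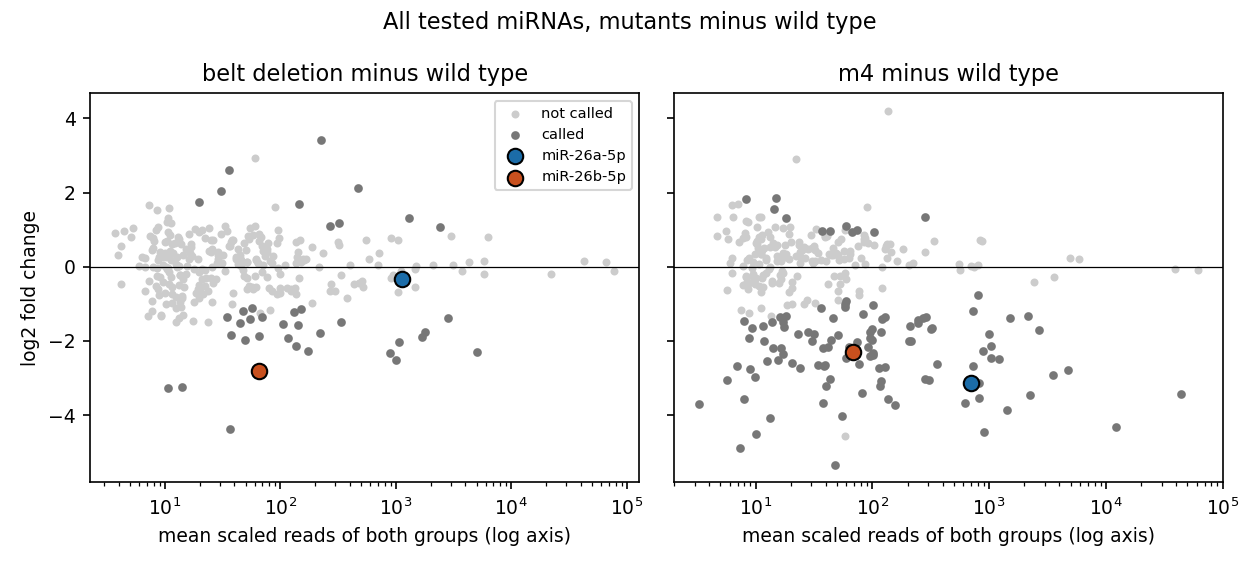
Log2 fold change against mean scaled reads of both groups (log axis) for the 310 tested miRNAs, belt deletion minus wild type on the left and m4 minus wild type on the right; dark grey points are called. miR-26b-5p lies at -2.82 on the left, among the lowest, while miR-26a-5p lies at -0.34; on the right they lie at -2.28 and -3.14.

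Between the mutants miR-26a-5p differed and miR-26b-5p was not called. With the belt deletion miR-26a-5p was 6.96-fold above m4, a log2 change of 2.80 (SE 0.33, edgeR adjusted p = 4.26e-11), where 27.1% of all tested were called, 25.8% higher and 1.29% lower. miR-26b-5p had a log2 change of -0.54 (SE 0.44, edgeR adjusted p = 0.443), without a call and with overlapping groups. It was -1.16 (edgeR adjusted p = 0.0854) without belt deletion replicate 2 and -0.10 (edgeR adjusted p = 0.961) without belt deletion replicate 3. Under total-count scaling the change of miR-26b-5p was -1.52 and called (edgeR adjusted p = 0.00667), and that of miR-26a-5p was 1.79.

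The ratio of miR-26b-5p to miR-26a-5p within a library needs no scaling between libraries. Reads of miR-26b-5p came to 1.55%, 3.08% and 0.502% of those of miR-26a-5p with the belt deletion. They came to 17.1%, 17.7% and 15.0% with m4. They came to 7.85%, 11.2% and 8.80% with wild type, against 18.3%, 10.2% and 7.89% with the empty plasmid. All 3 belt deletion libraries were below all other libraries, and the m4 libraries were above the wild-type ones. In belt deletion replicate 3 the share of miR-26b-5p among the reads of both was 0.4996%, with an exact 95% binomial interval of 0.184% to 1.08%. In wild type replicate 1, which had the lowest share of its group, it was 7.28% (5.98% to 8.75%). These intervals cover counting error only. Whether any reads of miR-26a-5p were counted as miR-26b-5p was not tested.

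The mean log2 ratio was -6.16 ± 1.28 with the belt deletion, -2.57 ± 0.12 with m4, -3.44 ± 0.26 with wild type and -3.05 ± 0.59 with the empty plasmid (SD, n = 3, 0.5 added to each count). It was 6.61-fold lower with the belt deletion than with wild type, 12.1-fold lower than with m4 and 8.63-fold lower than with the empty plasmid. It was 1.83-fold higher with m4 than with wild type. None of these 4 pairs of groups overlapped. Each gave p = 0.1 in a two-sided exact permutation test (0.15 adjusted over 6 comparisons), and no lower p is possible with 3 libraries a group. Wild type and the empty plasmid overlapped (log2 difference -0.39, exact permutation p = 0.5, adjusted 0.5), as did m4 and the empty plasmid (0.49, exact permutation p = 0.4, adjusted 0.48). Without belt deletion replicate 2 the log2 difference was -3.31 from wild type, -4.18 from m4 and -3.70 from the empty plasmid, and without its replicate 3 it was -2.04, -2.92 and -2.43.

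Since the permutation test cannot pass 0.05 here, the ratio was also tested in an edgeR fit over all miRNAs with each library's size set to its reads of miR-26a-5p, a fit chosen after the values had been seen. The log2 change of miR-26b-5p relative to miR-26a-5p was then -2.48 for the belt deletion against wild type (SE 0.44, edgeR adjusted p = 8.64e-05). It was -3.33 against m4 (SE 0.47, edgeR adjusted p = 1.24e-07) and -2.88 against the empty plasmid (SE 0.53, edgeR adjusted p = 7.36e-06). For m4 against wild type it was 0.84 (SE 0.42, edgeR adjusted p = 0.0651), without a call. This fit takes the counting error of miR-26a-5p itself as 0.

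**Figure D3:**
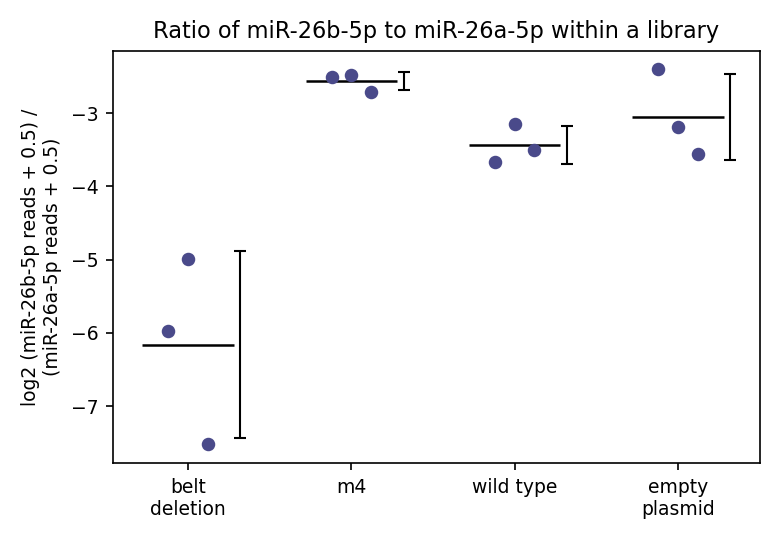
Log2 ratio of miR-26b-5p to miR-26a-5p reads (0.5 added to each) in each library by group; points are libraries, lines are means and bars are SDs (n = 3). The belt deletion libraries average -6.16 and lie below all 9 others.

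The 3p arms had few reads. The belt deletion libraries held 7 3p reads of the mir-26a hairpins among 3109 reads of both arms (0.225%, exact 95% binomial interval 0.0906% to 0.463%), and wild type held 4 among 2881 (0.139%, 0.0378% to 0.355%). Of these, 2 and 1 were miR-26a-1-3p and 5 and 3 were miR-26a-2-3p, so 3p reads of both loci were listed in both groups. The m4 libraries held 0 of 392, which allows a share of up to 0.765% by a floor of 3 reads and up to 0.937% by the exact interval. The empty ones held 0 of 206, which allows up to 1.46% by that floor and up to 1.77% by the exact interval. For mir-26b there were 2 reads of miR-26b-3p in all libraries among 395 reads of both arms. These were 1 of 66 with m4 and 1 of 26 with the empty plasmid (up to 8.2% and 19.6% by the exact interval). The belt deletion held 0 of 47 and wild type 0 of 256 (up to 7.55% and 1.43% by the exact interval). No 3p arm passed the filter on low counts, so none was tested, and a change in arm use was not detectable at this depth.

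Other canonical miRNAs from introns of protein-coding genes were set beside the sisters. The list has 34 names, of which 33 had reads and 23 passed the filter on low counts. Of the 23 tested, 9 were called lower and 2 higher with the belt deletion against wild type (9.35% and 3.23% of all miRNAs), with a median log2 change of -0.61 against 0.04 for all tested. The highest with wild type was miR-151a-3p, encoded in PTK2, which was lower with the belt deletion, 1579 ± 622 against 4078 ± 1170 scaled reads (-1.37, edgeR adjusted p = 0.00118). let-7g-5p, a let-7 member encoded in WDR82, was lower as well, 417 ± 60.9 against 1694 ± 356 (-2.02, edgeR adjusted p = 1.05e-06). miR-27b-3p, encoded in AOPEP, was higher, 3259 ± 708 against 1541 ± 549 (1.08, edgeR adjusted p = 0.0138). The higher calls, of miR-27b-3p and miR-28-3p, ended with the sum of the reference and without wild type replicate 1, wild type replicate 3 or belt deletion replicate 2, where 0 of the list were called higher by edgeR. The lower calls fell to 7 of 23 with the sum of the reference (24 of 310 for all tested). They fell to 6 of 24 without wild type replicate 1, belt deletion replicate 1 or belt deletion replicate 3. Of all tested, 22 of 345, 25 of 347 and 25 of 349 were then lower. With m4 against wild type 22 of 23 were lower (34.2% of all miRNAs), with a median of -2.14 against -0.19 for all tested. Under total-count scaling 13 of 23 were lower (60 of 310 for all tested), with a median of -1.06 against 0.86. With m4, the belt deletion and wild type 23 of 23 were called higher than with the empty plasmid (41%, 42.9% and 42.6% of all miRNAs), with median log2 changes of 2.19, 3.33 and 4.73 against 0.83, 0.73 and 0.72 for all tested. Under TMM the count for m4 was 16 of 23 (84 of 310 for all tested), with a median of 1.51 against 0.18. A miRNA could pass the filter through groups where it was high, so these counts were partly set in advance. Without the filter 21, 23 and 27 of 33 were called higher, against 129, 164 and 198 of all 1277. Against wild type 21 of 33 were then lower with m4 and 7 of 33 with the belt deletion (117 and 33 of all 1277).

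**Figure D4:**
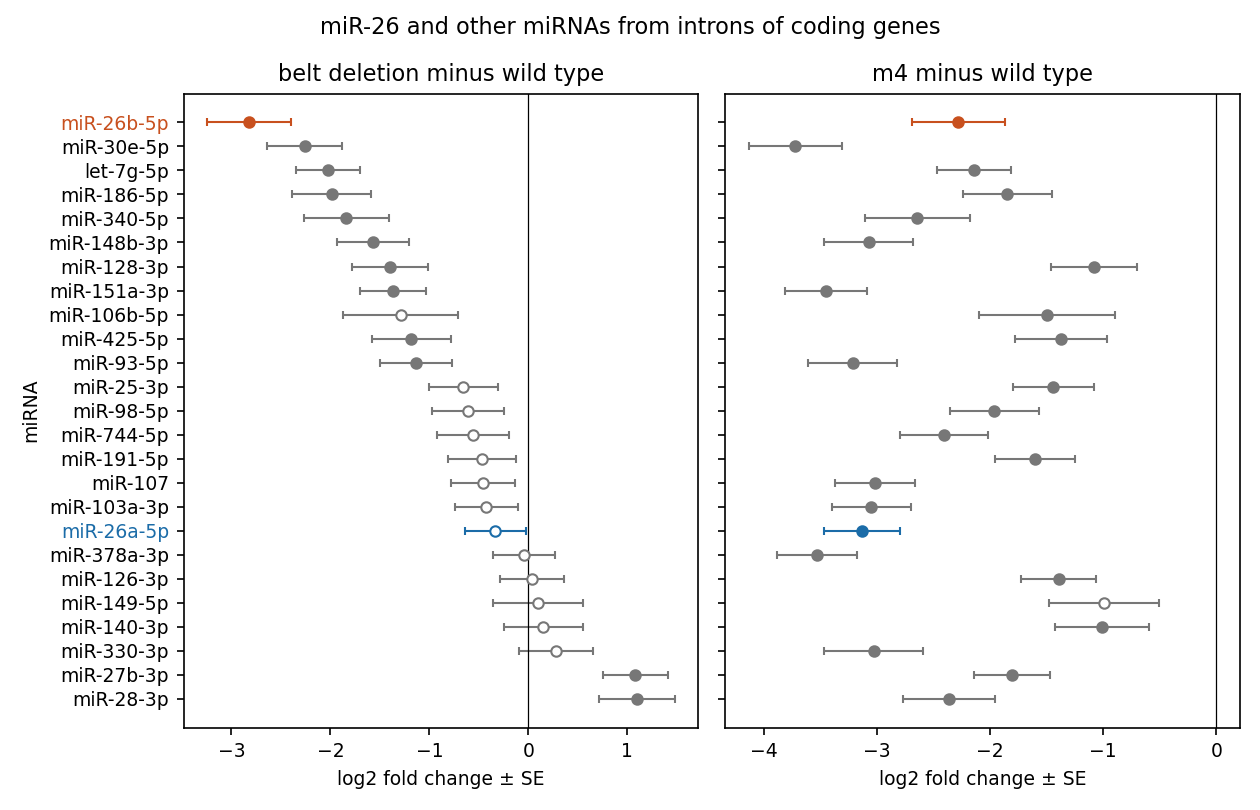
Log2 fold change ± SE of miR-26a-5p (blue), miR-26b-5p (orange) and the 23 tested miRNAs of the intronic list (grey), belt deletion minus wild type on the left and m4 minus wild type on the right; filled points are called. miR-26b-5p has the lowest value on the left, -2.82, and miR-26a-5p lies at -0.34 among those without a call.

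Set against the median of the 12 list members that had 10 reads or more in each library, miR-26b-5p was lower with the belt deletion. Its log2 level above that median was -4.71 ± 1.09 with the belt deletion and -1.94 ± 0.12 with wild type (SD, n = 3), a difference of -2.78 without overlap (exact permutation p = 0.1, the smallest possible, and 0.15 adjusted over 12 tests). That difference was -3.21 without belt deletion replicate 2 and -2.17 without its replicate 3. For miR-26a-5p the level was 1.45 ± 0.26 with the belt deletion and 1.50 ± 0.34 with wild type, a difference of -0.05 with overlap (exact permutation p = 0.6, adjusted 0.8). With m4 the level of miR-26a-5p was 0.34 ± 0.08, a difference of -1.16 from wild type without overlap (exact permutation p = 0.1, adjusted 0.15). For miR-26b-5p it was -2.22 ± 0.16 with m4, a difference of -0.29 from wild type without overlap (exact permutation p = 0.1, adjusted 0.15), whose sign turned with list members of at least 50 reads (0.08).

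The miRNAs with the profiles most like each sister were ranked over 185 other miRNAs by the root mean square difference of centred log2 levels over the 12 libraries, as a description. Nearest to miR-26a-5p were miR-378a-3p (0.35), miR-103a-3p (0.36), miR-107 (0.38), miR-378c (0.38) and miR-21-5p (0.39). Of these, miR-378a-3p lies in PPARGC1B, and miR-103a-3p and miR-107 lie in PANK genes. miR-103a-3p averaged 407 ± 59.9 scaled reads with the belt deletion, 65.9 ± 11.3 with m4, 547 ± 182 with wild type and 13.6 ± 3.07 with the empty plasmid. Reads of miR-378a and miR-378c, and of miR-103a and miR-107, come from near-identical sequences that the counting could have divided. Nearest to miR-26b-5p were miR-99b-5p (0.61), miR-186-5p (0.62), miR-92a-3p (0.65), miR-7-5p (0.69) and let-7g-5p (0.76). miR-186-5p, encoded in ZRANB2, averaged 20.3 ± 9.73 with the belt deletion, 21.8 ± 4.04 with m4, 78.8 ± 22.0 with wild type and 9.21 ± 2.59 with the empty plasmid. miR-26b-5p ranked 89th by likeness to miR-26a-5p, with a difference of 1.50, and miR-26a-5p ranked 71st by likeness to miR-26b-5p.

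**Figure D5:**
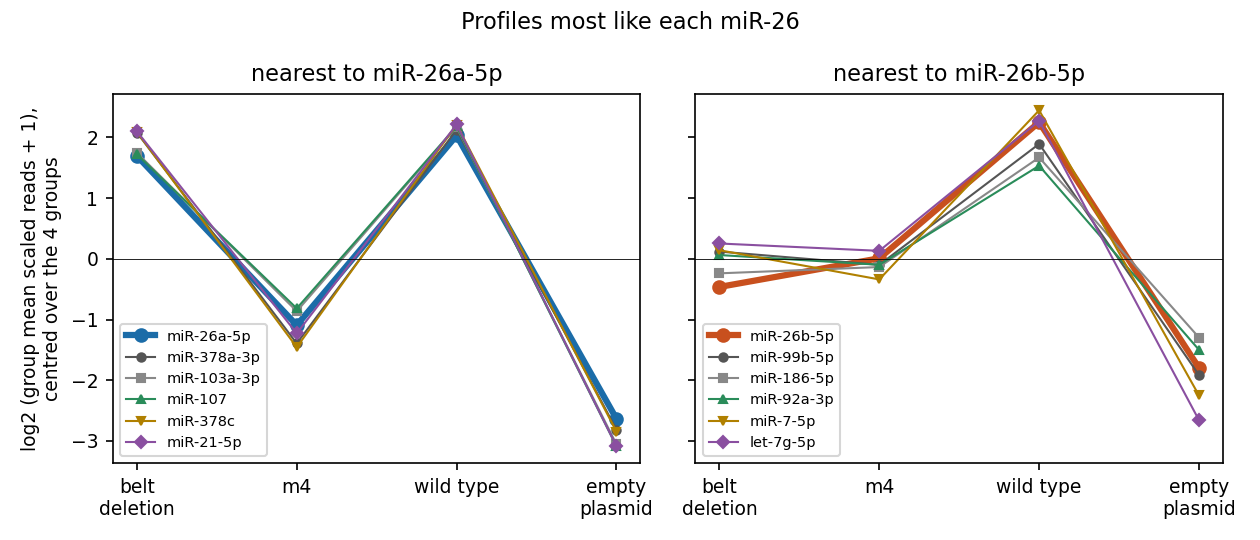
Group means as log2(scaled reads + 1), centred over the 4 groups, for miR-26a-5p and its 5 nearest miRNAs on the left and for miR-26b-5p and its 5 nearest on the right. The belt deletion point is near wild type on the left and near m4 on the right; miR-103a-3p on the left averages 407 with the belt deletion and 547 with wild type.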

How the data were processed

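The authors deposited 1 table of raw counts for 12 libraries, with a line for each mature miRNA of each hairpin. The submitters' processing notes name cutadapt, Bowtie2 and hg38. Versions, the counter, the miRNA annotation, strand use and the handling of multiply aligned reads are not given in the sources used here. Of 16908 entries 7220 were blank and none was 0, so blanks were read as 0. Table totals were 132667 to 407461 reads. For a name on several lines the line with most reads was kept, and 9 pairs of names that held equal reads (within 5 reads or 5% per library, over 120 reads) were merged, none of them miR-26. Size factors were median ratios over DROSHA-independent hairpins with at least 20 reads in every library. For the belt deletion against wild type these features themselves differed by log2 -0.37 (miR-484) to 0.76 (miR-1224), and for m4 against the empty plasmid by -0.54 (miR-320) to 0.42 (miR-1226). Tests used edgeR 4.0.16 in R 4.3.3 (filterByExpr, robust quasi-likelihood F test, no covariates, SE as log2 change over the root of F), DESeq2 1.42.0 as an alternative, and exact permutation tests (scipy 1.17.1). The edgeR code was tested on simulated data. Folds are from RNAfold 2.7.2, sequences from RefSeq, introns from GENCODE 29. The naming rule took the members, their seed-mates, the 5 most similar miRNAs of each (mean of at least 20 reads, pseudocount 1), the scaling features and the 3 highest of the intronic list. Members, lists and scaling were chosen with earlier results of these data known.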

Additional observations from a re-analysis of the deposited data

How the results depend on the processing

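Over 9 alternatives and 12 fits without 1 library, the results of miR-26a-5p in all 6 comparisons, and those of miR-26b-5p for wild type or m4 against the empty plasmid and for either mutant against wild type, kept direction and side of the threshold. For the belt deletion against wild type, miR-26b-5p ran from -2.95 to -2.75 over the alternatives and from -3.45 to -2.38 without 1 library. The exceptions were miR-26b-5p for the belt deletion against the empty plasmid, where scaling by TMM (0.62), by DESeq2's size factors (0.72) or by total counts (0.67) ended the call, and ranging from 0.82 to 1.96 without 1 library, and for the belt deletion against m4, called under total counts (-1.52). The ratio, not testable at 0.05 by permutation, was called in the added edgeR fit for the belt deletion against the empty plasmid (-2.88), wild type (-2.48) and m4 (-3.33). Relative to the intronic list, signs turned with members of at least 50 reads (3 members left) for miR-26a-5p in wild type against empty plasmid (-0.30), belt deletion against empty plasmid (-0.22) and belt deletion against wild type (0.080), and for miR-26b-5p in m4 against wild type (0.078); without 1 library they ran from -0.051 to 0.23 and from -0.25 to 0.10 for miR-26a-5p in the belt deletion against the empty plasmid and wild type, and from -0.46 to 0.012 for miR-26b-5p in wild type against the empty plasmid. None of these was called, and the causes were not tested. Scaling set the split of all calls, higher and lower: wild type against empty plasmid 132 and 2, against 125 and 93 (TMM), 126 and 68 (DESeq2 size factors) and 123 and 71 (total counts), with the median miRNA shifted by -0.86, -0.66 and -0.82. For m4 against the empty plasmid it was 127 and 3 (TMM 84 and 19, DESeq2 95 and 12), for the belt deletion against the empty plasmid 133 and 1 (TMM 114 and 42, DESeq2 115 and 34, total counts 109 and 33), for m4 against wild type 11 and 106 (TMM 43 and 97, DESeq2 39 and 97, total counts 133 and 60), for the belt deletion against wild type 10 and 29 (TMM 26 and 29), and against m4 80 and 4 (total counts 47 and 121). With the repeat number as a replicate block, the belt deletion against wild type gave -2.89 for miR-26b-5p and no call of either sister changed. For pairing, the mean of its group was subtracted from each library's log2 levels, and these deviations were correlated between libraries of different groups. Same-numbered libraries correlated at -0.25 to 0.13, with 2 of 18 pairs above 0.1. Libraries with different numbers correlated at -0.32 to 0.42. Of 12 libraries, 0 correlated best with their own number. These correlations showed no sign of pairing by number but cannot exclude it. The 3p arms, 13 reads in all, were too few to test.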
